A study of Macaca mulatta with 12 samples.

Results

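TXNIP was described beside genes of glucose uptake, glycolysis and lactate export in blood macrophages of rhesus macaques (Macaca mulatta). The set listed 10 genes, and 9 of them had a row among the 32386 rows of the count table. They are TXNIP, the glucose transporter SLC2A1, the hexokinases HK2 and HK3, the regulatory enzyme PFKFB3, the glycolytic enzymes GAPDH and PGK1, the lactate dehydrogenase LDHA and the lactate exporter SLC16A3. The enolase gene ENO1 was dropped, since no row carried its symbol or an identifier that the naming sources paired with it. The genes were chosen with their levels across the groups of these data known, so their levels, fold changes and calls are a description and carry no p-value.

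All animals had received their own mobilized CD34+ blood-forming cells back after CRISPR/Cas9 treatment of those cells, and the title of the study names TET2-mutant hematopoiesis. Every group therefore shares the edited transplant, and no group of animals without it is used here. Macrophages with CD14 and CD163 but without CD16 were sorted from blood at 4.5 months (early) or 19 months (late) after transplant, and 250000 cells per well were cultured for 8 h. Unstimulated wells (labelled CTL) received nothing, and stimulated wells (labelled ACT) received lipopolysaccharide (LPS), a bacterial cell wall component, at 100 ng/ml with interferon-gamma at 20 ng/ml. Another field of the labels, that of treatment, lists LPS without interferon-gamma. The 4 groups hold 3 libraries each, named here by group and replicate number. The labels do not state the share of cells with an edit, the age of the animals or whether replicates come from separate animals or wells. P-values thus reflect only variation among these libraries, possibly technical.

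TXNIP encodes an arrestin-like protein that binds thioredoxin and lowers glucose uptake by promoting removal of glucose transporters from the cell surface. Its transcription is driven by the glucose-sensing factor MondoA (gene MLXIP) with its partner MLX, and it falls in many cells when growth or inflammatory signals raise glucose use. Macrophages that meet LPS are known for a shift towards glycolysis, in which glucose enters through GLUT1 (gene SLC2A1), is phosphorylated by hexokinases and leaves as lactate.

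Library totals ran from 3910680 to 12972505 counts. Levels are given as normalised CPM, counts scaled to a common library total by way of TMM factors, which correct for differences in composition between libraries. Fold changes come from edgeR's quasi-likelihood test over the 11826 rows tested, and a gene is called where its p-value after Benjamini-Hochberg adjustment over all tested rows is under 0.05. On the second principal component, Early ACT 1 lay at -61.5 and the other early stimulated libraries at 1.49 and 1.79. Summed macrophage and CD14 monocyte markers (8 of 9 listed genes with a row) lay at 9203 to 10760 CPM in the early libraries and at 5699 to 6644 CPM in the late ones. LYZ and CD14 made up the largest parts of this sum. MRC1, at a low level, went the other way, averaging 1.47 and 1.52 CPM in the early groups and 3.27 and 2.26 CPM in the late ones. MARCO averaged at most 1.17 CPM, in the late stimulated group. Marker sums of 3 other cell types were also lower in every late library than in any early one. Neutrophil markers (4 of 5 with a row) summed to 516 to 608 CPM early and 255 to 340 CPM late, mostly CSF3R, a receptor gene that monocytes also express. Platelet markers (4 of 5) summed to 424 to 576 CPM and 330 to 395 CPM, and natural killer cell markers (3 of 5) to 42.6 to 61.1 CPM and 32.4 to 39.4 CPM. The last 2 sums came mostly from TUBB1 and NCAM1, and the other markers with a row in these 3 lists averaged at most 6.38 CPM in any group. The sums of CD16 monocyte, B cell and dendritic cell markers overlapped between the times. The T cell markers with a row (2 of 5) summed to at most 0.742 CPM, and the erythroid marker HBA1 was at 0 in every library. No label gives a date, so a batch that differed between the times cannot be told apart from time after transplant.

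TXNIP was high in a single group, the early unstimulated libraries. Its levels there were 391 CPM, 392 CPM and 438 CPM. In early stimulated libraries it stood at 87.3 CPM, 94.2 CPM and 95.5 CPM. Late unstimulated libraries held 78.1 CPM, 81.9 CPM and 78.4 CPM, and late stimulated libraries 64.5 CPM, 60.7 CPM and 55.2 CPM. The order was early unstimulated, early stimulated, late unstimulated and late stimulated, and no pair of neighbouring groups in that order overlapped.

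**Figure D1:**
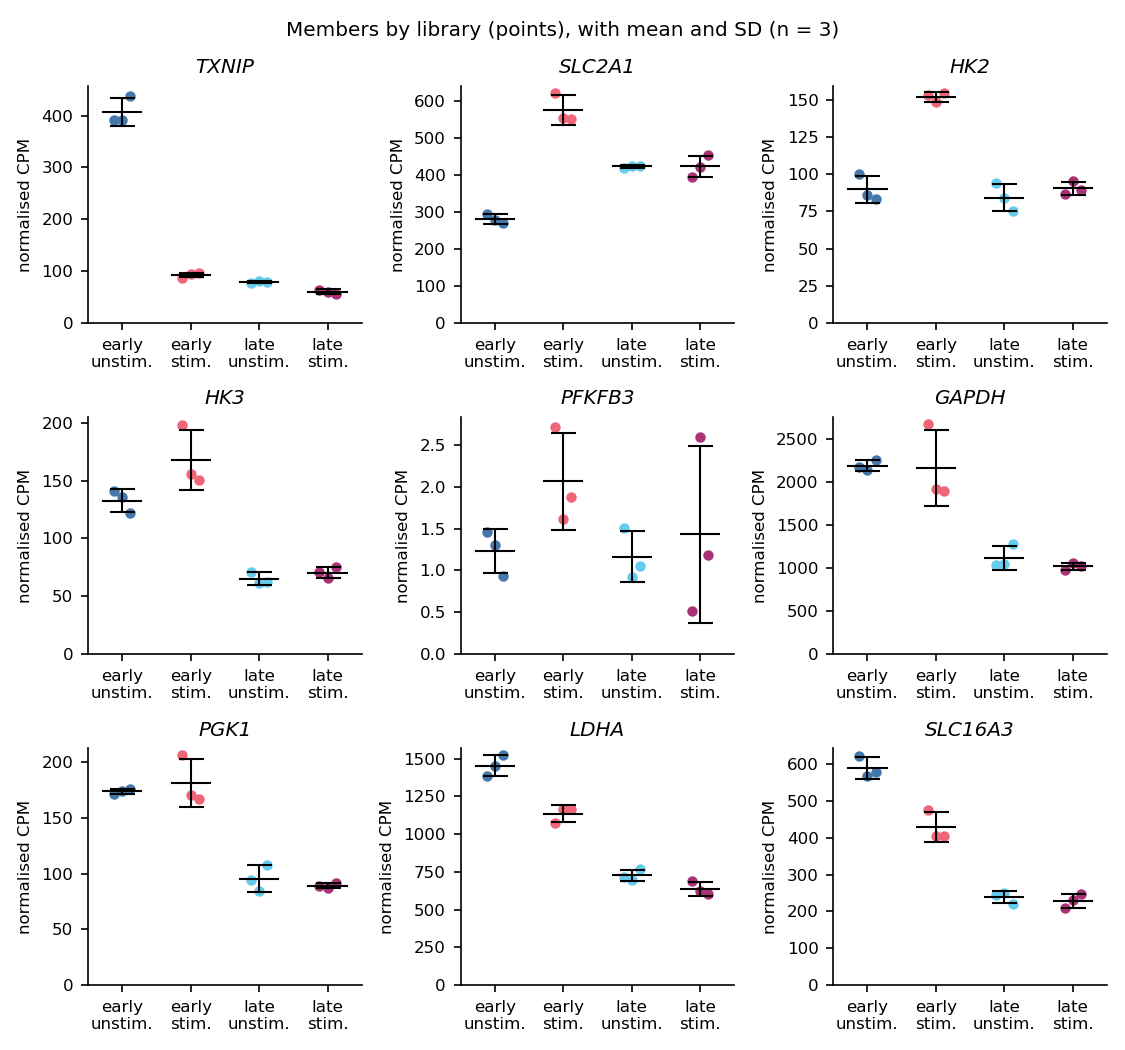
Normalised CPM of the 9 genes with a row in each of the 12 libraries (points), with the group mean (long bar) and SD (error bar, n = 3), each panel on its own linear axis from 0. TXNIP is at 391 to 438 CPM in early unstimulated libraries and at most 95.5 CPM elsewhere, while HK3, GAPDH, PGK1, LDHA and SLC16A3 step down from early to late.

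Without stimulation, TXNIP was 5.10-fold lower late than early, a log2 fold change of -2.35 ± 0.117 (SE). With stimulation at 4.5 months it was 4.40-fold lower than in unstimulated cells, at -2.14 ± 0.115. These comparisons share the early unstimulated libraries, so their similar size is not independent evidence of a common change. Stimulated cells differed less over time, by 1.54-fold (-0.62 ± 0.115). At 19 months the stimulated libraries were all below the unstimulated ones, by 1.32-fold (-0.41 ± 0.116), and the gene was not called by edgeR. The late response minus the early response of TXNIP was 1.73 ± 0.161 on the log2 scale, so the fall on stimulation was 3.32-fold larger early than late.

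The authors' deposited table gives TXNIP at -2.34 ± 0.09 in unstimulated and -0.62 ± 0.15 in stimulated cells, late over early. On the build Mmul_8.0.1, its position there (ENSMMUG00000007338) is chromosome 1, 121623743 to 121630937.

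SLC2A1, which encodes the glucose transporter GLUT1, was lowest in the group where TXNIP was highest. Its levels were 296 CPM, 278 CPM and 271 CPM in early unstimulated libraries and 624 CPM, 554 CPM and 553 CPM in early stimulated ones. Late unstimulated libraries held 420 CPM, 426 CPM and 425 CPM, and late stimulated ones 395 CPM, 423 CPM and 453 CPM. The late groups overlapped each other and lay between the early groups, which did not overlap with them or with each other.

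Early stimulation went with a 2.05-fold higher level of SLC2A1 (1.03 ± 0.107 on the log2 scale). With late stimulation its difference was -0.00 ± 0.106, with a 95% interval from -0.21 to 0.21. Over time SLC2A1 was 1.51-fold higher late in unstimulated cells (0.59 ± 0.107) and 1.36-fold lower late in stimulated cells (-0.44 ± 0.106). The late response minus the early response was -1.03 ± 0.150. The authors' deposited table gives SLC2A1 (ENSMMUG00000000373) the position chromosome 1, 42323785 to 42359588.

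Within each library, log2 CPM of SLC2A1 minus log2 CPM of TXNIP set the early unstimulated group apart. The difference was -0.53 ± 0.146 (SD, n = 3) there, against 2.64 ± 0.169 in early stimulated, 2.41 ± 0.0325 in late unstimulated and 2.81 ± 0.213 in late stimulated libraries. Values between these genes are not scaled for transcript length, so the step between groups can be read and the sign cannot. TXNIP minus the mean log2 CPM of GAPDH, PGK1 and LDHA was -1.01 ± 0.0554 in early unstimulated and -3.04 ± 0.195 in early stimulated libraries. The same difference was -2.42 ± 0.166 in late unstimulated and -2.69 ± 0.0987 in late stimulated libraries. TXNIP therefore stepped down relative to the glycolytic enzymes as well as in its own level, with no overlap between the early unstimulated group and any other.

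**Figure D2:**
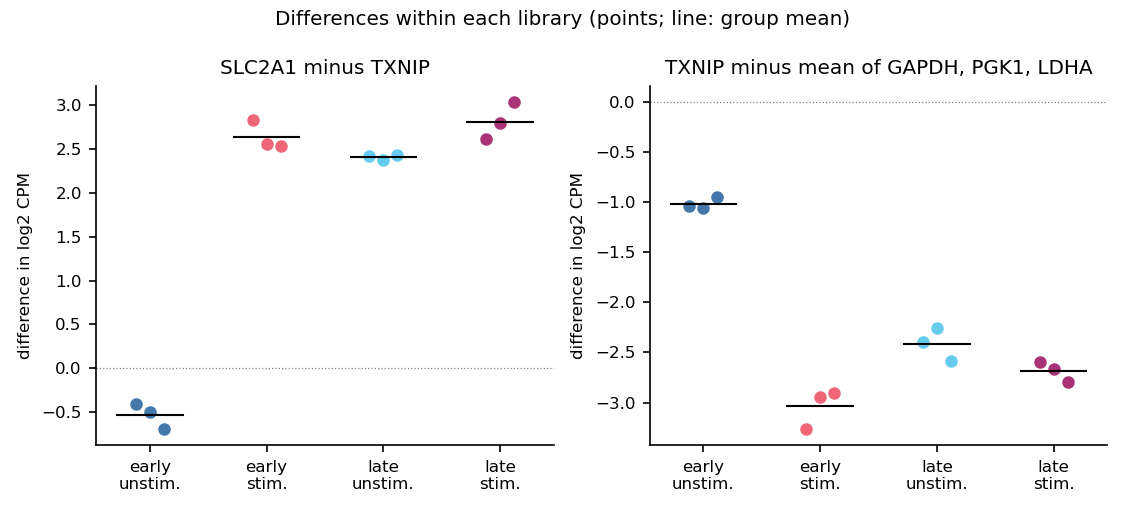
Differences in log2 normalised CPM between genes within each of the 12 libraries (points) and the group means (lines), for SLC2A1 minus TXNIP (left) and TXNIP minus the mean of GAPDH, PGK1 and LDHA (right). The early unstimulated group stands apart in both panels, at a mean of -0.53 on the left and -1.01 on the right.

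HK2 encodes the inducible hexokinase, which traps glucose in the cell as glucose phosphate. It stood at 153 CPM, 148 CPM and 154 CPM in early stimulated libraries and between 75.1 CPM and 100.0 CPM in the other 9. It was 1.70-fold higher with early stimulation (0.76 ± 0.120) and 0.11 ± 0.122 higher on the log2 scale with late stimulation, where the groups overlapped. Unstimulated cells showed an overlap between the times as well (-0.09 ± 0.122, and 0.04 with upper-quartile factors), and stimulated cells had a 1.68-fold lower level late. The late response minus the early response of HK2, -0.66 ± 0.171, was not called, though it was called in 5 of the alternatives, among them DESeq2 and the fits without Early ACT 1 or without Late CTL 3.

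HK3, the hexokinase best known from myeloid cells, differed more between the times than between the states. Its levels were 141 CPM, 136 CPM and 122 CPM in early unstimulated and 198 CPM, 155 CPM and 150 CPM in early stimulated libraries. All 6 late libraries lay between 61.4 CPM and 75.1 CPM. It was 2.04-fold lower late without stimulation (-1.03 ± 0.130) and 2.37-fold lower with it (-1.24 ± 0.128). The early groups did not overlap, yet the early difference of 0.33 ± 0.125 was not called, and the highest library was Early ACT 1. In the authors' deposited table HK2 (ENSMMUG00000011845) lies on chromosome 13 from 75866664 to 75925175 and HK3 (ENSMMUG00000002653) on chromosome 6 from 175389701 to 175413123.

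PFKFB3, whose product makes the sugar phosphate that activates phosphofructokinase, was too low to describe a response. It had 4 to 22 counts per library and levels from 0.52 CPM to 2.72 CPM. On early stimulation its difference was 0.70 ± 0.529, with a 95% interval from -0.34 to 1.74, and it was called in none of the 5 comparisons. The sign of its difference over time in unstimulated cells (-0.11 ± 0.585) turned with upper-quartile factors (0.02) and without Late CTL 2 (0.03).

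GAPDH and PGK1, which act in the lower, energy-yielding part of glycolysis, and LDHA, which turns pyruvate into lactate, were lower late in both states. GAPDH stood at 2177 CPM, 2137 CPM and 2260 CPM in early unstimulated and 1037 CPM, 1042 CPM and 1277 CPM in late unstimulated libraries. In stimulated libraries it was 2674 CPM, 1915 CPM and 1902 CPM early and 981 CPM, 1056 CPM and 1028 CPM late. The early and late libraries did not overlap in either state, and the highest value again belonged to Early ACT 1. The log2 fold changes of late against early were -0.97 ± 0.126 without and -1.08 ± 0.126 with stimulation.

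PGK1 showed the same step, from 167 to 207 CPM over the 6 early libraries to 84.1 to 108 CPM over the 6 late ones. It was 1.81-fold lower late without and 2.02-fold lower late with stimulation. Stimulation left GAPDH at -0.02 ± 0.124 and PGK1 at 0.06 ± 0.119 early, and at -0.13 ± 0.125 and -0.10 ± 0.123 late. The groups overlapped in all 4 of these, and the signs of the early GAPDH value and of both PGK1 values changed among the fits that left out a library.

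LDHA stood at 1386 CPM, 1449 CPM and 1523 CPM in early unstimulated and 1070 CPM, 1166 CPM and 1166 CPM in early stimulated libraries. Late unstimulated libraries held 718 CPM, 693 CPM and 768 CPM, and late stimulated ones 686 CPM, 624 CPM and 601 CPM. The stimulated libraries lay below the unstimulated ones at both times. LDHA was 1.99-fold lower late without and 1.78-fold lower late with stimulation. The early difference on stimulation, -0.36 ± 0.104, was called and lost the call in 8 alternatives, among them the fits without Early CTL 1, 2 or 3 and without Early ACT 2 or 3. The late one was -0.19 ± 0.105 and not called.

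SLC16A3, the exporter MCT4 that carries lactate out of glycolytic cells, had the largest step over time after TXNIP among the 9 genes in unstimulated cells. It stood at 624 CPM, 568 CPM and 581 CPM in early unstimulated and 246 CPM, 250 CPM and 220 CPM in late unstimulated libraries, a 2.47-fold lower level late (-1.30 ± 0.114). In stimulated libraries it was 476 CPM, 406 CPM and 404 CPM early and 210 CPM, 230 CPM and 248 CPM late, 1.86-fold lower (-0.90 ± 0.113). Early stimulation went with a 1.38-fold lower level (-0.46 ± 0.112), a call lost without Early CTL 1. Late stimulation gave -0.06 ± 0.113 with overlapping groups.

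Many mammalian genomes carry near-identical processed copies of GAPDH, PGK1, LDHA and ENO1, and reads can be split among such copies, so these counts are uncertain. A second row described as phosphoglycerate kinase 1 in the authors' deposited table (ENSMMUG00000013725, chromosome 7, 38511434 to 38512687) was at -0.95 ± 0.199 late against early without stimulation and -1.16 ± 0.196 with it. A row described there as enolase 1 (ENSMMUG00000011916, chromosome 3, 59076137 to 59078106, a span of 1970 bases) was at -0.39 ± 0.131 and -0.77 ± 0.131. Both rows were chosen by their description after the set was fixed, and neither was counted as a gene of the set. In the same table GAPDH (ENSMMUG00000018679) lies on chromosome 11 from 6772044 to 6775784, and PGK1 (ENSMMUG00000012874) on chromosome X from 71949100 to 71971439. LDHA (ENSMMUG00000031024) lies on chromosome 14 from 47938475 to 47949642, and SLC16A3 (ENSMMUG00000010121) on chromosome 16 from 76123158 to 76146491. The authors' deposited table also lists the pyruvate kinase gene PKM, at -0.77 ± 0.07 in unstimulated and -1.11 ± 0.16 in stimulated cells; its row in the count table was not analysed here.

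**Figure D3:**
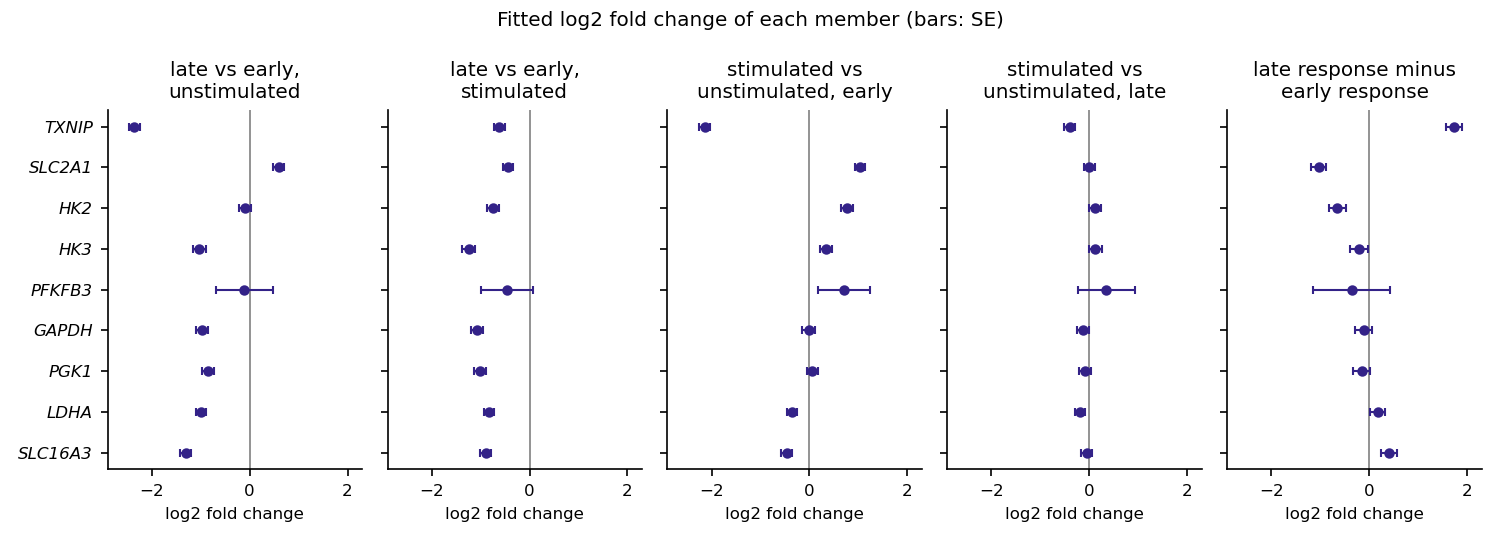
Fitted log2 fold change (points) and SE (bars) of the 9 genes in the 5 comparisons, the last being the late response minus the early response. TXNIP has the largest falls, -2.35 and -2.14, and SLC2A1 is the gene with a rise both over time without stimulation (0.59) and on early stimulation (1.03).

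Counted over the 9 genes, all of which passed the filter on low counts, 1 was higher, 6 were lower and 2 were not called late against early without stimulation. The median log2 fold change was -0.97, against 0.02 over all tested rows, of which 20.9% were called higher and 19.8% lower. With stimulation 8 were lower and 1 was not called (median -0.83 against 0.05), where 19.1% of tested rows were called higher and 19.7% lower. On early stimulation 2 were higher, 3 were lower and 4 were not called, beside 4.57% of tested rows higher and 2.66% lower. Without Early CTL 1 the calls on early stimulation came to 3 in place of 5. Nothing is read from these counts, as the genes were chosen on these groups.

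On late stimulation none of the 9 genes was called by edgeR, and neither was any tested row (0% higher and 0% lower). At an unadjusted p under 0.05 there were 527 rows, and DESeq2 called 15 rows, TXNIP among them. In the late response minus the early response 1 gene (TXNIP) was higher and 1 (SLC2A1) was lower, beside 0.186% of tested rows higher and 1.23% lower. Without Early ACT 1 the calls there came to 4, with HK2 and SLC16A3 added. The marker sums of macrophages, neutrophils, platelets and natural killer cells given above moved with time in the same direction as TXNIP, HK3, GAPDH, PGK1, LDHA and SLC16A3, and their part in those falls was not tested. In bulk samples fewer cells of a type and less RNA per cell cannot be told apart.

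Other genes of the pathway were taken from 9 lists with 116 genes, of which 103 had a row and 84 were tested. Late against early, 14 of the 84 rose, 32 fell and 38 did not pass without stimulation, and 9 rose, 30 fell and 45 did not pass with it. Over all tested rows 20.9% were called higher and 19.8% lower without stimulation, and 19.1% and 19.7% with it. The median log2 fold change was -0.28 and -0.10, against 0.02 and 0.05 over all tested rows. On early stimulation 4 rose and 5 fell, beside 4.57% of tested rows higher and 2.66% lower. On late stimulation none of the 84 passed, beside 0% of tested rows higher and 0% lower. Without Early ACT 1, 17 of these genes passed on early stimulation, and without Early CTL 2, 5 did. All adjusted p-values below are from edgeR's quasi-likelihood test with Benjamini-Hochberg adjustment. The lists too were chosen with earlier results of these data known, which limits what these p-values can show.

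**Figure D4:**
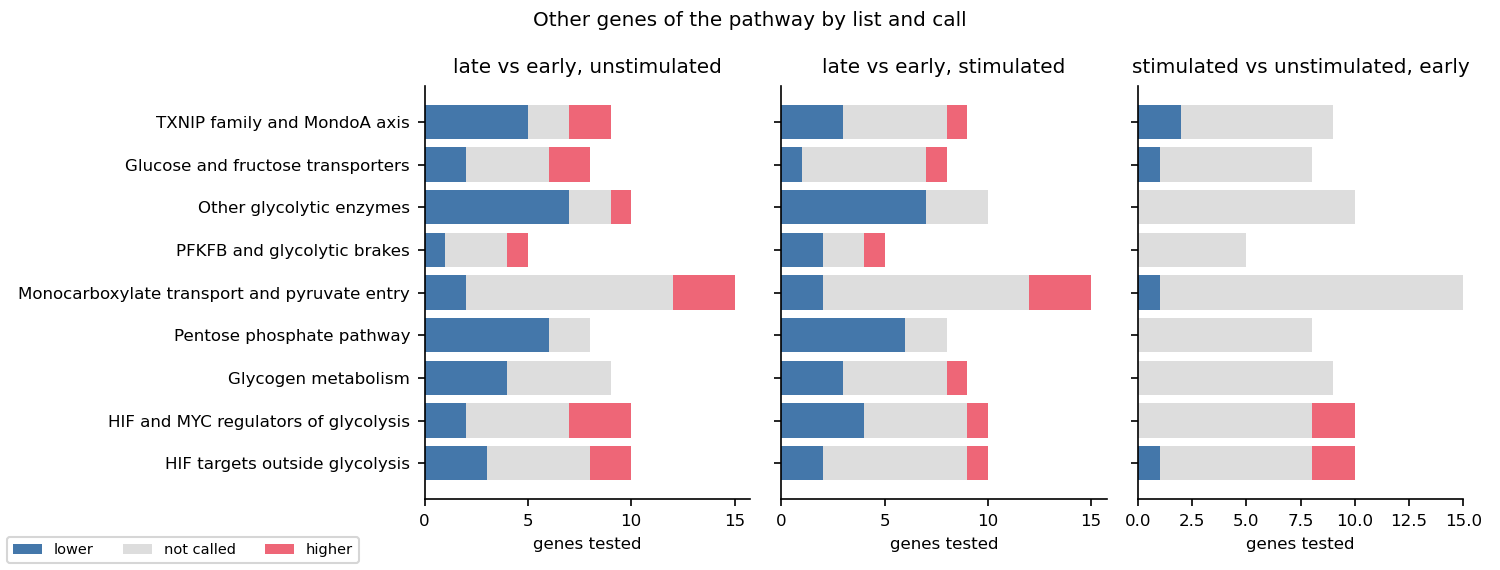
Number of tested genes in each of the 9 pathway lists called lower (blue), not called (grey) or called higher (red), late against early without stimulation (left), with stimulation (middle), and stimulated against unstimulated early (right). Other glycolytic enzymes (7 of 10 lower) and the pentose phosphate pathway (6 of 8 lower) have most genes on the lower side over time. Over all tested rows, 19.8% (left) and 19.7% (middle) were lower. No gene of either list was called on early stimulation, where 4.57% of tested rows were higher and 2.66% lower.

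Of 10 tested other glycolytic enzymes, 7 fell and 1 rose late without stimulation, and 7 fell with it. Over all tested rows, 19.8% were lower and 20.9% higher without stimulation, and 19.7% and 19.1% with it. PFKL, a subunit of phosphofructokinase, the main control point of glycolysis, fell 2.36-fold from 109 to 45.9 CPM (-1.24 ± 0.174 on the log2 scale, adjusted p = 4.2e-06) and 2.46-fold in stimulated cells (adjusted p = 2.42e-06). GPI, which turns glucose phosphate into fructose phosphate, fell by 0.90 ± 0.151 (adjusted p = 4.29e-05) and by 1.12 ± 0.151 (adjusted p = 2.93e-06). The aldolase gene ALDOA fell by 0.70 ± 0.135 and 0.81 ± 0.135, and the mutase gene PGAM1 by 0.58 ± 0.108 and 0.66 ± 0.108 (adjusted p from 3.77e-05 to 0.000223 over the 4 values). HK1, the hexokinase found in most tissues, fell 1.46-fold without stimulation (adjusted p = 0.000956) and 1.88-fold in stimulated cells (adjusted p = 2.78e-06). None of the 10 passed on stimulation at either time, beside 4.57% of tested rows higher and 2.66% lower early and 0% late. With 10 genes, that absence is no result about the enzymes.

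The pentose phosphate pathway, which branches off glycolysis to make NADPH and ribose, had 6 of 8 genes lower late in each state and none higher. The transketolase gene TKT fell by 0.88 ± 0.128 (adjusted p = 6.96e-06) and by 0.99 ± 0.128 (adjusted p = 1.74e-06). H6PD, which makes NADPH inside the endoplasmic reticulum, fell by 1.12 ± 0.240 (adjusted p = 0.000611) and 1.06 ± 0.236 (adjusted p = 0.00102). Glycogen genes fell in 4 of 9 without and in 3 of 9 with stimulation, with 1 higher in the latter. Over all tested rows, 19.8% were lower without stimulation, and 19.7% were lower and 19.1% higher with it. The median log2 fold change of the glycogen genes with stimulation was 0.02, against 0.05 over all tested rows. With 9 genes, the counts with stimulation are no result about this list. PYGL, a phosphorylase that releases glucose from glycogen, fell 1.90-fold (adjusted p = 2.79e-06) and 1.40-fold (adjusted p = 0.00367).

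Among the other relatives and regulators of TXNIP, 5 of 9 fell and 2 rose late without stimulation. With stimulation 3 fell, 1 rose and 5 were not called. Over all tested rows, 19.8% were lower and 20.9% higher without stimulation, and 19.7% and 19.1% with it. The median log2 fold change of the list was -0.71 without and -0.09 with stimulation, against 0.02 and 0.05 over all tested rows. ARRDC3, an arrestin-like relative of TXNIP, was the one gene of this list whose response to stimulation differed between the times. Its levels were 63.5 CPM, 72.1 CPM and 66.8 CPM in early unstimulated libraries, 32.2 CPM, 35.5 CPM and 38.9 CPM in early stimulated ones, 28.6 CPM, 34.7 CPM and 39.3 CPM in late unstimulated and 45.7 CPM, 37.1 CPM and 40.8 CPM in late stimulated ones. The early unstimulated group lay above all others. ARRDC3 fell 1.95-fold late without stimulation (adjusted p = 1.02e-05) and 1.89-fold on early stimulation (adjusted p = 8.37e-05). On late stimulation it was at 0.26 ± 0.146 (adjusted p = 0.998), and the late response minus the early response was 1.17 ± 0.204 (adjusted p = 0.00122).

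ARRDC2, another arrestin-like relative, fell 2.72-fold late without (adjusted p = 2.33e-07) and 2.01-fold late with stimulation (adjusted p = 4.14e-05). Its fall of 0.54 ± 0.157 on early stimulation (adjusted p = 0.0357) lost its call in 6 alternatives, with adjusted p from 0.0681 to 0.199, among them the fits without Early CTL 1, 2 or 3 and without Early ACT 2 or 3. MLXIP, which encodes MondoA, fell late by 0.71 ± 0.137 without stimulation (adjusted p = 0.000207). Its fall of 0.38 ± 0.134 with stimulation (adjusted p = 0.0287) was lost in 3 alternatives, one of them without Late ACT 1 (adjusted p from 0.081 to 0.168). MLX fell by 0.90 ± 0.164 (adjusted p = 0.00011) and by 0.71 ± 0.166 (adjusted p = 0.00164). On early stimulation MLXIP was at -0.02 ± 0.133 (adjusted p = 0.946) and MLX at -0.49 ± 0.158 (adjusted p = 0.059); MLX was called without Early CTL 1, without Early ACT 1 and by DESeq2. ITCH, a ubiquitin ligase that marks TXNIP protein for breakdown, rose late by 0.44 ± 0.121 (adjusted p = 0.00544) and 0.60 ± 0.121 (adjusted p = 0.000404).

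Of 8 other sugar transporters tested, 2 rose and 2 fell late without stimulation. On early stimulation 1 fell and none rose, beside 2.66% of tested rows lower and 4.57% higher. The counts over time are near the shares of all tested rows (20.9% higher and 19.8% lower), so they are no result about these transporters. SLC2A3, which encodes the high-affinity glucose transporter GLUT3, stood between 3045 and 3527 CPM in the 12 libraries. Its log2 fold changes lay between -0.04 and 0.11 in the 4 pairwise comparisons, each ± 0.101 (adjusted p from 0.402 to 0.998). The fructose transporter gene SLC2A5 rose late by 0.52 ± 0.149 (adjusted p = 0.00664) and 0.59 ± 0.149 (adjusted p = 0.00316). SLC37A2, a sugar phosphate transporter gene of macrophages, fell by 0.65 ± 0.132 late without stimulation (adjusted p = 0.000378) and by 0.63 ± 0.131 on early stimulation (adjusted p = 0.00243), the early unstimulated libraries being shared. SLC2A6, another transporter gene, fell 1.86-fold late with stimulation (adjusted p = 0.000774), lost without Early ACT 1 (adjusted p = 0.0705); its fall without stimulation (adjusted p = 0.0497) was lost in 8 alternatives (adjusted p from 0.0565 to 0.256).

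In the list of PFKFB enzymes and glycolytic brakes, 1 of 5 rose and 1 fell late without stimulation, and 1 rose and 2 fell late with it. Of all tested rows, 20.9% were called higher and 19.8% lower without stimulation, and 19.1% and 19.7% with it. With 5 genes, the counts are no result about this list. GCKR, an inhibitor of liver glucokinase, rose 3.31-fold late against early in stimulated cells, from 1.62 to 5.03 CPM (adjusted p = 0.00195). In unstimulated cells it rose late by 1.42 ± 0.451, from 1.07 to 2.74 CPM (adjusted p = 0.014). PFKFB4, a relative of PFKFB3, fell late by 1.04 ± 0.293 without stimulation (adjusted p = 0.00625). Its late fall of 0.73 ± 0.287 with stimulation (adjusted p = 0.046) was lost in 7 alternatives (adjusted p from 0.0556 to 0.237).

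Beside the exporter SLC16A3, the related lactate and pyruvate carrier gene SLC16A1 moved the other way over time. In the list of monocarboxylate transport and pyruvate entry, 3 of 15 tested genes rose and 2 fell late, in each state, where 20.9% and 19.1% of all tested rows were higher and 19.8% and 19.7% lower; the share of risers is near that background. SLC16A1 rose 2.39-fold late without stimulation, from 4.63 to 11.4 CPM (adjusted p = 0.00047), and 2.33-fold with it (adjusted p = 0.000585). BSG, the chaperone that brings both carriers to the cell surface, fell by 0.46 ± 0.106 (adjusted p = 0.00124) and by 0.68 ± 0.106 (adjusted p = 2.31e-05). PDK4, a kinase that inhibits pyruvate dehydrogenase, rose 2.65-fold late without stimulation, from 1.89 to 5.20 CPM (adjusted p = 0.00365). PDP1, a phosphatase that reactivates pyruvate dehydrogenase, fell 1.95-fold on early stimulation (adjusted p = 0.00131).

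Among 10 tested regulators of glycolysis around MYC and hypoxia-inducible factor (HIF), 3 rose and 2 fell late without stimulation. On early stimulation 2 rose and none fell, beside 4.57% of tested rows higher and 2.66% lower. With stimulation 1 rose and 4 fell late. Of 10 HIF targets outside glycolysis, 2 rose and 3 fell late without stimulation, and 1 rose and 2 fell with it. With 10 genes a list, the counts over time, among them the 4 regulators that fell, are no result about either list. The shares of all tested rows are 20.9% higher and 19.8% lower without stimulation, and 19.1% and 19.7% with it. HIF1A, which encodes the inducible subunit of HIF, was at -0.32 ± 0.133 late without stimulation (adjusted p = 0.0552), and 2 alternatives called it there (adjusted p = 0.00308 and 0.00815). With stimulation it fell late by 0.39 ± 0.133 (adjusted p = 0.021), a call that 6 alternatives removed, among them the fits without Early ACT 2 or 3 and without Late ACT 2 or 3 (adjusted p from 0.0585 to 0.104). On early stimulation HIF1A was at 0.09 ± 0.133 (adjusted p = 0.746), and it was called without Early ACT 1 (adjusted p = 0.00513). MYC, which encodes a growth factor-induced transcription factor, rose by 0.59 ± 0.118 late without stimulation (adjusted p = 0.000312) and by 0.63 ± 0.117 on early stimulation (adjusted p = 0.000784), its lowest group being the early unstimulated one at 56.1 to 62.2 CPM. EPAS1, a sister gene of HIF1A, rose 2.32-fold late without stimulation (adjusted p = 3.93e-05) and 1.66-fold with it (adjusted p = 0.00457). EGLN2, an oxygen sensor that marks HIF for breakdown, fell by 1.26 ± 0.136 late without stimulation (adjusted p = 8.25e-08). With stimulation EGLN2 fell late by 0.78 ± 0.132 (adjusted p = 6.25e-05).

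HILPDA, a lipid droplet gene induced by HIF, fell from 14.7 to 17.6 CPM in early unstimulated libraries to 1.51 to 2.42 CPM in late unstimulated ones (adjusted p = 1.75e-08). In stimulated cells it fell 6.49-fold (adjusted p = 7.44e-08). VEGFA, the angiogenic growth factor gene and another HIF target, went the other way, with 1670 to 1817 CPM in early unstimulated and 2733 to 3158 CPM in late unstimulated libraries. It rose 1.71-fold late without stimulation (adjusted p = 1.63e-06) and 1.60-fold on early stimulation (adjusted p = 5.36e-05). The late response minus the early response of VEGFA was -0.55 ± 0.142 (adjusted p = 0.0467), and 12 alternatives took the call away (adjusted p from 0.067 to 0.174 there). Those included leaving out any 1 library other than Early ACT 1 and Late CTL 3. On early stimulation EGLN3 rose by 0.88 ± 0.239 (adjusted p = 0.022), NDRG1 rose by 0.43 ± 0.125 (adjusted p = 0.0339) and KDM3A fell by 0.48 ± 0.122 (adjusted p = 0.0139). All 3 are HIF-induced genes, and they lost the call in 4, 5 and 3 alternatives, among them the fits without Early CTL 2 (adjusted p up to 0.144).

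Genes with a pattern close to that of TXNIP were ranked by the root-mean-square difference of log2 CPM over the 12 libraries, each gene centred on its own mean, among named genes with a mean of at least 10 CPM. The closest 5 were BMF (0.296), LRRC25 (0.326), NLRP12 (0.469), GPR35 (0.479) and CSF1R (0.512). BMF, which encodes a pro-apoptotic protein, averaged 125 CPM in unstimulated and 42.4 CPM in stimulated cells early, and 39.4 CPM and 28.5 CPM late. CSF1R, the receptor for macrophage colony-stimulating factor, averaged 289 CPM and 168 CPM early, and 90.6 CPM and 71.2 CPM late, in the same order. CSF1R is also 1 of the 8 macrophage markers in the sum given above. The ranking was made on the same libraries, so it describes likeness and tests nothing.

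The same ranking for SLC2A1, a choice made after its values were seen, gave EPHA2 (0.1003), PLEK (0.103), ETS2 (0.111), TNFAIP3 (0.113) and SESN2 (0.113). TNFAIP3, which encodes an inhibitor of NF-kB signalling, averaged 1304 CPM in unstimulated and 2456 CPM in stimulated cells early, and 1670 CPM and 1660 CPM late.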

How the data were processed

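Per the labels' protocols, the cDNA kit was SMART-Seq V4, whose reads do not show the strand, and libraries were built with Nextera XT. The authors deposited raw counts per gene and library as whole numbers. The submitters' processing notes name bcl2fastq and build Mmul_8.0.1; aligner and counter are not stated there. The authors' deposited tables hold log2 fold changes (late over early) with standard errors, a mean normalized count (a signal value), the test score, and a p-value and adjusted p-value for genes with an adjusted p under 0.05.

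Rows were named by their own symbol, by an Ensembl name table or by the authors' tables, which left 15557 rows with a usable name. Rows without one held 17.48% of the counts. The filter was edgeR's filterByExpr by group. Tests used edgeR 4.0.16 in R 4.3.3 (quasi-likelihood, robust, TMM, 1 coefficient per group over all 12 libraries), with DESeq2 1.42.0 as an alternative. The SE was computed as the size of the log2 fold change divided by √F, and log2 CPM used a prior count of 2. The pipeline was tested on simulated data. The genes and lists were chosen with earlier results of these data known. Named list genes were, per list and comparison, up to 4 with the smallest p among those called with a mean of at least 5 CPM, plus MLXIP, MLX, HIF1A and SLC2A3. Reads carry no molecular identifiers, so depth limits the precision of low genes such as PFKFB3, and near-identical copies of a gene can share reads. No sequences are printed.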

Additional observations from a re-analysis of the deposited data

Results flagged for a closer look

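The response to stimulation differed between the times, by the test of that difference (late response minus early response, edgeR quasi-likelihood), in 4 genes. TXNIP was at 1.73, falling on early stimulation and, without a call, less on late stimulation. SLC2A1 was at -1.03, rising on early stimulation and not on late. Both were selected on these data, so their values are a description. The lists that hold ARRDC3 and VEGFA were also chosen with earlier results of these data known. ARRDC3 was at 1.17 (adjusted p = 0.00122), falling early with all 3 stimulated libraries below all 3 unstimulated ones. VEGFA was at -0.55 (adjusted p = 0.0467), rising early with no overlap, and it lost the call in 12 alternatives.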

How the results depend on the processing

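TXNIP kept its direction and side of the threshold in every alternative but 1, given below. Among values of other single genes, 1615 kept their direction and side of the threshold, 99 lost and 12 gained a call, 32 uncalled values changed sign, and no called value reversed. Upper-quartile factors shifted the median of all tested rows from 0.02 to 0.15 without stimulation and from 0.05 to 0.15 with it, and split the calls into 3096 higher and 1794 lower (2471 and 2342 with TMM) and 2882 and 1845 (2263 and 2326). On early stimulation, calls over all rows numbered 855 and, with only the compared groups in the fit, 503. Leaving out 1 library gave 464 to 1554 calls, 3 to 5 among the 9 genes and 5 to 17 among the other pathway genes. On late stimulation, calls over all rows were 2 with upper-quartile factors, 5 without a low-count filter and 10 with only the compared groups. They were 15 with DESeq2 and 0 to 2 without 1 library. DESeq2 called 1 of the 9 genes, TXNIP at -0.42, a description only, as the genes were chosen on these groups. For the late minus the early response, DESeq2 called 305 rows in place of 167. Leaving out 1 library gave 95 to 546 calls over all rows, 2 to 4 among the 9 genes and 1 to 7 among the other pathway genes, each highest without Early ACT 1; no low-count filter gave 1 of the pathway genes. The cause of these shifts was not tested. Replicate numbers did not pair the samples, as correlations of deviations over 18 same-numbered pairs lay between -0.0855 and 0.0968; with the replicate block, 1 pathway gene in place of 2 passed in the late minus the early response.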
